A study of Danio rerio with 18 samples.

Results

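The genes described here code for the machinery that brings new proteins into the endoplasmic reticulum (ER) and for the vesicle coats that carry them between the ER and the Golgi apparatus. They were chosen by symbol, as genes whose names begin with those of the Sec, signal recognition particle, TRAP, signal peptidase, COPI, p24 and related families, at an average log2 CPM of at least 0 (CPM, read counts scaled to a common library total). Of 74 matching symbols, which cover 127 transcripts, 73 passed, out of 12828 genes at that level in all. For each gene the transcript with the highest average was used. The level removed sec22c, a gene of the Sec22 family. Its average log2 CPM was -0.13, with log2 fold changes of -0.87 to 0.48 in the authors' deposited table. The lowest genes kept were tmed4 (1.56) and tmed1a (1.94). Single samples were not analysed here: the authors' deposited table gives each comparison as a log2 fold change with raw and adjusted p-values, and 1 average level over all samples.

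The samples were digestive organs (intestine, liver and pancreas) of wild-type AB zebrafish larvae at 6.5 days post fertilization, with 18 samples in 6 groups of 3 and 10 larvae pooled in each sample. Larvae of the high-fat cohort ate a 5% egg yolk emulsion and were taken at 1 h or 4 h. Larvae of the low-fat cohort ate 10% egg white and were taken at the same times, and the meals are called egg yolk and egg white below. Each meal went to a single cohort at its own concentration, so meal, cohort and concentration cannot be told apart. Per the labels, the 3 samples of a group came from independent preparations of pairwise crosses. Each cohort had its own unfed larvae, so the fed groups at 1 h and 4 h of a cohort share their controls. No sampling time is given for the unfed larvae. Time since a meal thus cannot be told apart from other differences between the 1 h and 4 h groups, such as time of day. In pooled organs, a change in the share of a cell type cannot be told apart from a change in RNA per cell.

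Secreted and membrane proteins carry a signal sequence that the signal recognition particle binds as it leaves the ribosome. The ribosome docks at the SRP receptor, the chain passes through the Sec61 channel, and signal peptidase removes the signal. Cargo then leaves the ER in vesicles coated by COPII, and COPI vesicles return receptors and escaped ER proteins from the Golgi. Enterocytes export lipoproteins, hepatocytes plasma proteins and pancreatic acinar cells digestive enzymes along this route. In humans, mutations of SAR1B cause chylomicron retention disease, in which enterocytes fail to export dietary fat.

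Most of the 73 genes lay slightly above their unfed level after each meal, and few passed the test for a single gene. At 1 h after egg yolk the median log2 fold change of the 73 genes in the authors' deposited table was 0.30, and 57 lay above 0, against a median of -0.01 and 48.8% above 0 for all 12828 genes. At 4 h after it the median in the authors' deposited table was 0.24 with 58 above 0 (all genes 0.01 and 51.2%). The values in the authors' deposited table were 0.27 and 61 at 1 h after egg white (all genes 0.02 and 52.4%), and 0.23 and 69 at 4 h after it (all genes 0.02 and 53.6%). The 73 genes are well expressed, with 71 at an average log2 CPM of at least 2. Among the 8643 genes at that level, 52.1%, 53.8%, 55.5% and 55.7% lay above 0 in the same order of comparisons. The share above 0 rose with the level in each comparison except 4 h after egg yolk. Among the 3624 genes at a log2 CPM of 4 or more, 57.5%, 52.5%, 63.2% and 56.3% lay above 0 in the authors' deposited table. That level was chosen after the data were seen, and the medians there were 0.07, 0.02, 0.11 and 0.03. Of the 46 members at that level 39, 37, 42 and 46 lay above 0, with medians of 0.37, 0.26, 0.29 and 0.23.

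**Figure D1:**
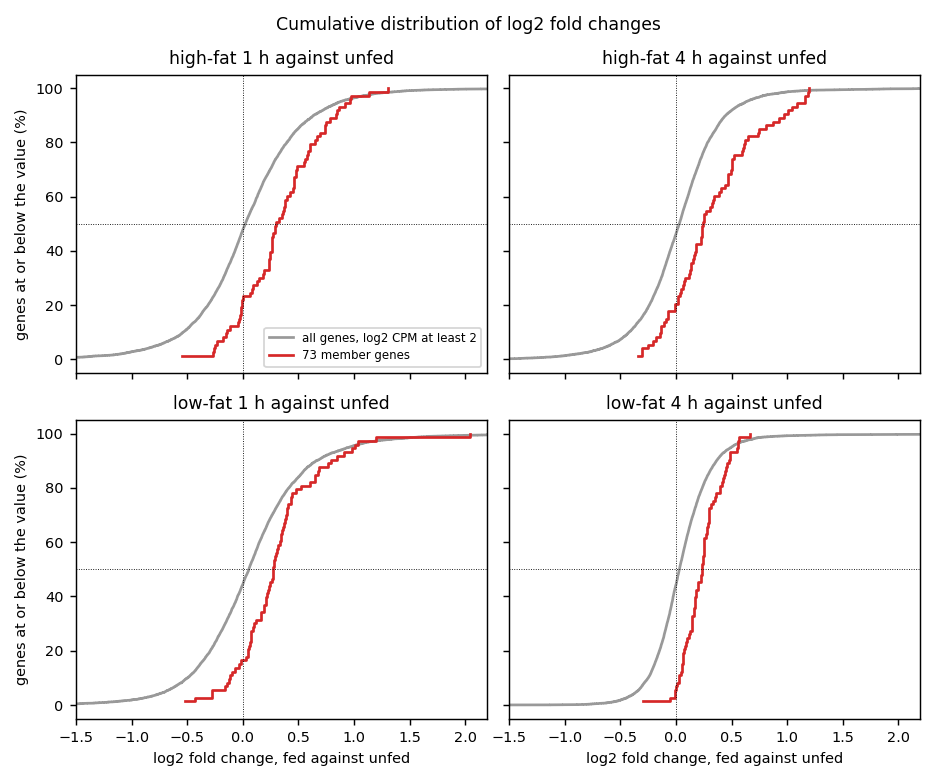
Cumulative share of genes (y axis, %) at or below each log2 fold change against unfed larvae (x axis), in a panel for each of the 4 comparisons, for the 73 member genes (red) and for all 8643 genes at an average log2 CPM of at least 2 (grey). The red line lies to the right of the grey line over most of its length, with medians of 0.30, 0.24, 0.27 and 0.23, and it is steepest at 4 h after egg white.

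An adjusted p under 0.05 over all 56754 transcripts counts as a call. By that rule the authors' deposited table held 1 gene higher and 0 lower of 73 at 1 h after egg yolk, where 1.96% of all genes were called higher and 1.77% lower. At 4 h after egg yolk it held 0 and 0 (all genes 0.741% and 0.616%), at 1 h after egg white 2 and 0 (2.72% and 1.34%), and at 4 h after it 0 and 0 (0.437% and 0.0078%). These shares are near those of all genes. At an unadjusted p under 0.05 from the same edgeR tests, 12, 13, 9 and 0 of the 73 genes were higher in the authors' deposited table and 0 were lower in each comparison. The gene sec22c, removed by the level filter, was lower by that rule at 1 h after egg yolk (-0.87, unadjusted p = 0.047). Of all genes 7.3%, 3.51%, 8.48% and 1.79% were higher by that rule, and 7.2%, 4.26%, 5.74% and 0.756% were lower. Among the 3624 genes at a log2 CPM of 4 or more, 357, 170, 375 and 66 were higher by that rule. At that level, chosen after the data were seen, 6, 11, 5 and 0 of the 46 members were higher. The standard error implied by the authors' p-values was 0.357 to 0.377 for the 73 genes, a 95% interval of about ±0.705 on the log2 scale. It hardly depends on the transcript, so a gene's own spread between samples does not enter these calls or intervals. Among the 12828 genes the smallest log2 fold change called in the authors' deposited table was 1.17, 1.28, 1.16 and 1.42 in size in the 4 comparisons, so the median shift of the 73 genes lies below what a call for a single gene can show.

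**Figure D2:**
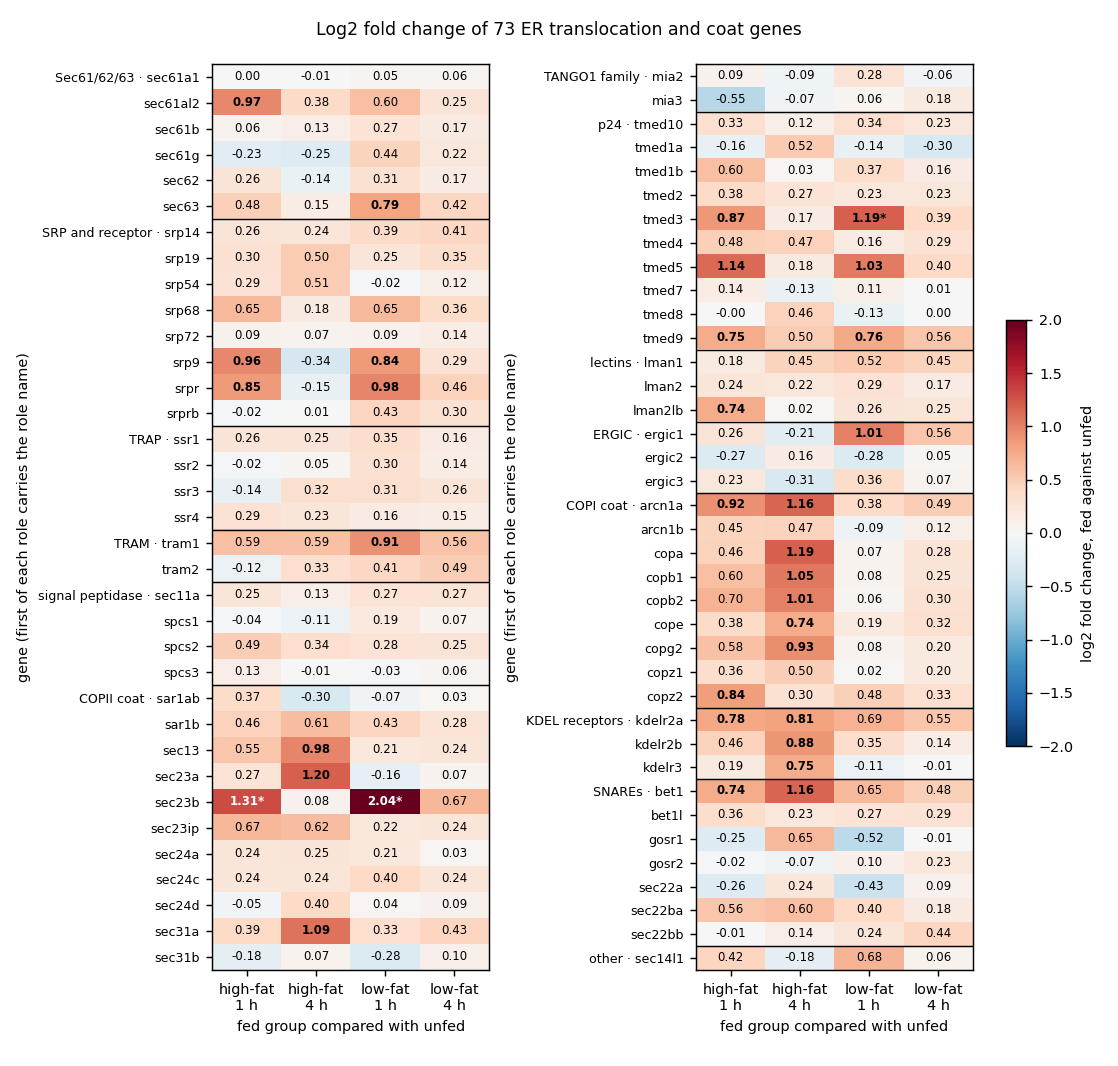
Log2 fold change against unfed larvae (colour and printed value) of the 73 genes, in rows grouped by role, for the 4 comparisons in columns. Bold values have an unadjusted p under 0.05 and an asterisk marks an adjusted p under 0.05, which was reached by sec23b after both meals at 1 h and by tmed3 at 1 h after egg white.

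The clearest change was that of sec23b. It codes for a Sec23 protein of the inner COPII coat, which activates the GTPase Sar1 and, with Sec24, gathers cargo. Its level averaged 145 CPM over all samples, and the transcript ENSDART00000011865 lies at a locus on chromosome 6 from 6695929 to 6712811 of Zv9. At 1 h after egg white sec23b rose 4.12-fold, a log2 value of 2.04 in the authors' deposited table, where its adjusted p was 8.5e-06. At 1 h after egg yolk it rose 2.48-fold, a log2 value of 1.31 in the authors' deposited table, where its adjusted p was 0.018. At 4 h the authors' deposited table gave 0.08 after egg yolk and 0.67 after egg white (adjusted p = 1 for both), and neither passed. The rise was thus seen at 1 h after either meal, in cohorts with separate unfed controls. The second transcript of sec23b had much the same values, but transcripts of a gene may share reads, so it is not an independent measurement.

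The change of sec23b between the times passed a test of the difference itself, which was run here on the authors' values. The log2 fold change of sec23b was lower at 4 h than at 1 h by 1.23 after egg yolk (difference -1.23, standard error 0.358, adjusted p = 0.014) and by 1.37 after egg white (difference -1.37, standard error 0.358, adjusted p = 0.012). With standard errors raised by 25% neither passed (adjusted p = 0.14 and 0.20). Its difference between the meals at 1 h was -0.73 (95% interval -1.73 to 0.26, adjusted p = 1), so these data do not settle whether egg white gave a larger rise than egg yolk. Among 1847 other genes at an average log2 CPM of at least 5, those closest to sec23b over the 4 fold changes were slc43a3b, tinagl1, top1l, sult1st2 and ugdh, at Euclidean distances of 0.335 to 0.658 on the log2 scale. For slc43a3b the authors' deposited table gave 1.07 and 2.26 at 1 h after egg yolk and egg white, and 0.03 and 0.58 at 4 h.

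The paralog sec23a had another order of values. Loss of sec23a in zebrafish (the crusher mutant) blocks collagen export in cartilage. In the authors' deposited table sec23a had 0.27 at 1 h and 1.201 at 4 h after egg yolk (adjusted p = 1 and 0.073), and -0.16 and 0.07 at 1 h and 4 h after egg white. None of these passed. The log2 fold change of sec23a was higher at 4 h than at 1 h after egg yolk by 0.93 (95% interval 0.23 to 1.64, adjusted p = 0.10), and at 4 h it was higher after egg yolk than after egg white by 1.13 (95% interval 0.14 to 2.13, unadjusted p = 0.026, adjusted p = 0.96), and neither difference passed. At 1 h sec23b exceeded sec23a by 1.04 after egg yolk and by 2.201 after egg white on the log2 fold change scale, while at 4 h after egg yolk it lay below sec23a (sec23b minus sec23a, -1.12). These gaps between the paralogs are a description with no test. On average sec23a was at 29.7 CPM.

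The other 9 genes of the COPII coat group held no call. Their highest values in the authors' deposited table at 4 h after egg yolk were 1.09 for sec31a and 0.98 for sec13, the outer cage subunits (adjusted p = 0.14 and 0.24). For sec31a the authors' deposited table gave 0.39 at 1 h after egg yolk, and 0.33 and 0.43 at 1 h and 4 h after egg white. The values of the other cage paralog, sec31b, ran from -0.28 to 0.10 in the authors' deposited table. The cargo adaptors sec24a, sec24c and sec24d, which choose what enters the vesicle, lay between -0.05 and 0.40 in all 4 comparisons of the authors' deposited table. The GTPase gene sar1b, which starts coat assembly, had 0.46 and 0.61 at 1 h and 4 h after egg yolk and 0.43 and 0.28 after egg white in the authors' deposited table, with adjusted p from 0.81 to 1. For sec23ip, whose product binds Sec23, it gave values from 0.22 to 0.67. The paralog of sar1b, sar1ab, had 0.37, -0.30, -0.07 and 0.03 in the same order in the authors' deposited table. The authors' deposited table gives sar1b and sec24a the same locus on chromosome 21, from 44314189 to 44373090, shared also with camlg and ddx46, so reads may be shared among them. For the large-cargo exit receptors mia2 and mia3 (TANGO1), the authors' deposited table gave values from -0.55 (mia3, 1 h after egg yolk, adjusted p = 0.69) to 0.28.

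The median of the COPI coat genes was highest at 4 h after egg yolk, although copz2 had 0.84 at 1 h and 0.30 at 4 h in the authors' deposited table. COPI is a heptamer that forms vesicles returning from the Golgi to the ER, and zebrafish mutants of copa, copb1 and copb2 fail in notochord development. All 9 COPI genes lay above 0 at 4 h after egg yolk in the authors' deposited table (51.2% of all genes), with a median of 0.93. All 9 also lay above 0 at 1 h after egg yolk and 4 h after egg white (all genes 48.8% and 53.6%). At 1 h after egg white 8 of 9 did (52.4%). Among genes at a log2 CPM of 4 or more, 57.5% and 52.5% lay above 0 at 1 h and 4 h after egg yolk. After egg white 63.2% and 56.3% of them did. At 4 h after egg yolk 6 of 9 had an unadjusted p under 0.05, where 3.51% of all genes were higher by that rule. The 9 values in the authors' deposited table were 1.19 for copa, 1.16 for arcn1a, 1.05 for copb1, 1.01 for copb2, 0.93 for copg2, 0.74 for cope, 0.50 for copz1, 0.47 for arcn1b and 0.30 for copz2. None passed, with a lowest adjusted p of 0.076 (copa). At 1 h after egg yolk the values in the authors' deposited table ran from 0.36 (copz1) to 0.92 (arcn1a), with a median of 0.58 and adjusted p of at least 0.20, and 2 of 9 (arcn1a and copz2) had an unadjusted p under 0.05, where 7.3% of all genes were higher by that rule.

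After egg white 0 of 9 COPI genes had an unadjusted p under 0.05 at either time, near the 8.48% and 1.79% of all genes that were higher by that rule at 1 h and 4 h. The COPI median in the authors' deposited table was 0.08 at 1 h, with values from -0.09 (arcn1b) to 0.48 (copz2), and 0.28 at 4 h, with values from 0.12 (arcn1b) to 0.49 (arcn1a). The difference between the meals was tested for each gene. At 4 h the egg yolk value was higher by 0.92 for copa (95% interval -0.08 to 1.91, adjusted p = 1), by 0.80 for copb1 (-0.20 to 1.79) and by 0.71 for copb2 (-0.29 to 1.70), and copz2 had -0.03 (-1.03 to 0.97). None of the 9 differences passed. The COPI values at 1 h and 4 h after a meal share their unfed controls, and subunits measured in the same libraries are not replicates of a condition.

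KDEL receptors, which bind escaped luminal proteins in the Golgi for return by COPI, had a median of 0.81 at 4 h after egg yolk in the authors' deposited table, with 0.88 for kdelr2b, 0.81 for kdelr2a and 0.75 for kdelr3. Each had an unadjusted p under 0.05 (0.015, 0.024 and 0.041), where 3.51% of all genes were higher by that rule, and, in the authors' deposited table, an adjusted p of at least 0.36. By the same rule 1 of 3 (kdelr2a) was higher at 1 h after egg yolk, where 7.3% of all genes were higher. After egg white the authors' deposited table gave 0.14, 0.55 and -0.01 for these genes at 4 h. At 1 h kdelr2a had 0.78 after egg yolk and 0.69 after egg white in the authors' deposited table, while kdelr3 had 0.19 and -0.11. The differences between meals at 4 h were 0.73, 0.25 and 0.76, each with a standard error of 0.507 to 0.519 and an adjusted p of 1.

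**Figure D3:**
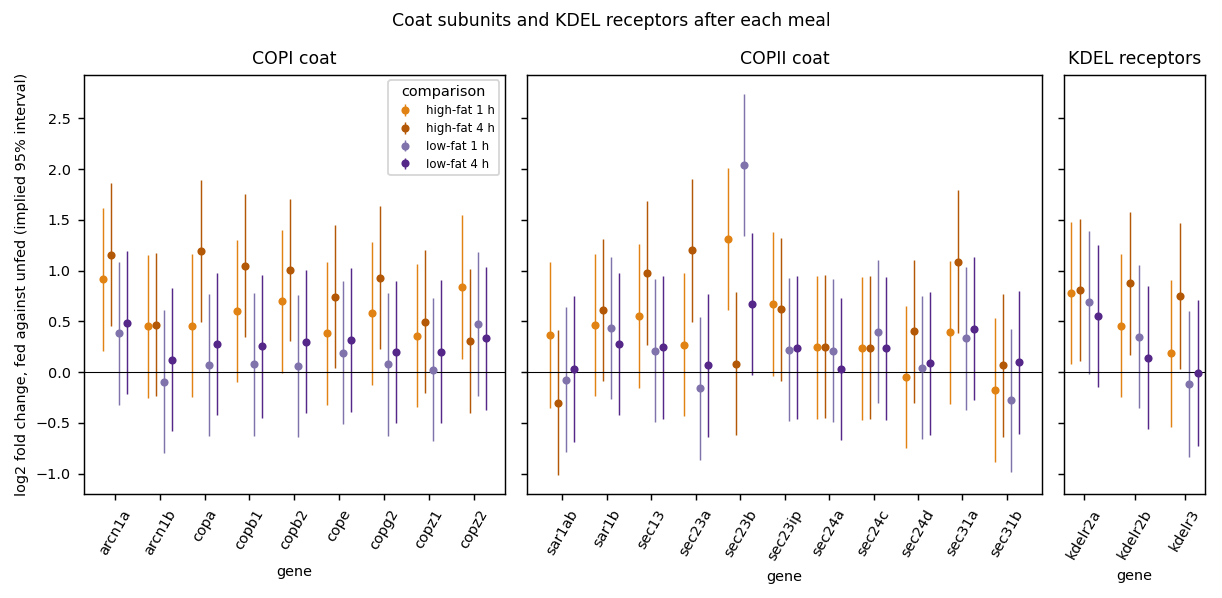
Log2 fold change against unfed larvae (y axis) of the COPI coat, COPII coat and KDEL receptor genes (x axis), with a point for each of the 4 comparisons and bars for the 95% interval implied by the authors' p-values. At 4 h after egg yolk (dark orange) the COPI genes reach up to 1.19 (copa). All 9 lie above 0 there, at 1 h after egg yolk and at 4 h after egg white, and 8 of 9 at 1 h after egg white. The gene sec23b stands out at 1 h after either meal (1.31 and 2.04).

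The p24 proteins, membrane receptors that cycle between ER and Golgi and bind both coats, held the other call. At 1 h after egg white tmed3 rose 2.29-fold, a log2 value of 1.19 in the authors' deposited table, where its adjusted p was 0.040, and it had 0.87 at 1 h after egg yolk (adjusted p = 0.25), 0.17 at 4 h after egg yolk and 0.39 at 4 h after egg white. Its transcript averaged 11.6 CPM and spans 31512174 to 31514199 of chromosome 7 in Zv9. The p24 gene tmed5 had 1.14 and 1.03 at 1 h after egg yolk and egg white in the authors' deposited table (0.065 and 0.12 as adjusted p), against 0.18 and 0.40 at 4 h. When p-values were adjusted over the 12828 genes, tmed5 passed at 1 h after egg yolk (adjusted p = 0.044). Neither tmed3 (-0.70 and -0.80 for 4 h minus 1 h after egg yolk and egg white, adjusted p = 0.32 and 0.39) nor tmed5 (-0.96 and -0.63, adjusted p = 0.10 and 0.64) passed the test between the times. For tmed9 the authors' deposited table gave 0.75, 0.50, 0.76 and 0.56 at 1 h and 4 h after egg yolk and at 1 h and 4 h after egg white. The well expressed tmed2 and tmed10, whose proteins form the core of p24 complexes, lay between 0.12 and 0.38 in the authors' deposited table. The other genes placed in this group by the tmed name alone (tmed1a, tmed1b, tmed4, tmed7 and tmed8) ran from -0.30 to 0.60 there.

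On the entry side the main Sec61 channel gene had values near 0. For sec61a1, which codes for the channel itself and averaged 673 CPM, the authors' deposited table gave 0.00, -0.01, 0.05 and 0.06, each with an adjusted p of 1 and a 95% interval of about ±0.70. The paralog sec61al2, at 50.3 CPM, had 0.97 at 1 h after egg yolk (adjusted p = 0.15) and 0.60 at 1 h after egg white in the authors' deposited table, then 0.38 and 0.25 at 4 h. The small channel subunit gene sec61g had -0.23 and -0.25 after egg yolk and 0.44 and 0.22 after egg white in the authors' deposited table, and sec61b lay between 0.06 and 0.27. For sec63, a partner of Sec61 that recruits the luminal chaperone BiP, the authors' deposited table gave 0.48, 0.15, 0.79 and 0.42, and for sec62 0.26, -0.14, 0.31 and 0.17, in the order of egg yolk 1 h and 4 h and egg white 1 h and 4 h. None of the 6 genes passed in any comparison.

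Among the 8 genes of the signal recognition particle and its receptor, srp9 and srpr had the highest values at 1 h. The authors' deposited table gave 0.96 and 0.84 for srp9 at 1 h after egg yolk and egg white (adjusted p = 0.16 and 0.27), and 0.85 and 0.98 for srpr, the receptor subunit that binds the particle (adjusted p = 0.26 and 0.14). At 4 h after egg yolk both lay below 0 in the authors' deposited table, with -0.34 for srp9 and -0.15 for srpr, against 0.29 and 0.46 after egg white. The difference between the times passed for srp9 after egg yolk (4 h minus 1 h, -1.30, standard error 0.364, adjusted p = 0.0096), although neither fold change against unfed larvae did, and it did not pass with standard errors raised by 25% (adjusted p = 0.11). It did not pass for srpr (-0.99, adjusted p = 0.073), nor for either gene after egg white (-0.55 and -0.52, adjusted p = 0.75 and 0.78). With srp9 at 8.98 CPM this rests on fewer reads than the values of sec23b. Products of srp9 and srp14 form a dimer in the particle, and srp14 had 0.26, 0.24, 0.39 and 0.41 in the authors' deposited table. The membrane anchor of the receptor, srprb, had -0.02, 0.01, 0.43 and 0.30 there. The other particle genes srp19, srp54, srp68 and srp72 lay between -0.02 and 0.65.

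The TRAP complex, which sits beside the channel and helps weak signal sequences enter, lay between -0.14 (ssr3) and 0.35 (ssr1) in all 4 comparisons of the authors' deposited table, and the signal peptidase genes sec11a, spcs1, spcs2 and spcs3 between -0.11 and 0.49. The TRAM gene tram1 had 0.59, 0.59, 0.91 and 0.56 in the authors' deposited table, with a lowest adjusted p of 0.19 at 1 h after egg white, and tram2 had -0.12 to 0.49. Over the 24 genes of ER entry the median in the authors' deposited table was 0.26 and 0.14 at 1 h and 4 h after egg yolk and 0.31 and 0.25 after egg white. Over the 48 genes of export and return it was 0.37 and 0.42 after egg yolk and 0.22 and 0.23 after egg white. The gap between entry and export was not tested.

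Values of the fusion proteins and lectins differed from gene to gene. The SNARE gene bet1, of fusion at the cis-Golgi, had 0.74 and 1.16 at 1 h and 4 h after egg yolk (adjusted p = 0.41 and 0.11) and 0.65 and 0.48 after egg white in the authors' deposited table. The Golgi SNARE gene gosr1 had -0.25 and 0.65, and -0.52 and -0.01, in the authors' deposited table, and its difference of 0.90 between 4 h and 1 h after egg yolk did not pass (adjusted p = 0.14). The other 5 genes, grouped with the SNAREs by name, lay between -0.43 (sec22a) and 0.60. The mannose-binding cargo receptors lman1, lman2 and lman2lb lay between 0.02 and 0.74 in the authors' deposited table. For ergic1, of the intermediate compartment, the authors' deposited table gave 0.26 and -0.21 after egg yolk and 1.01 and 0.56 after egg white (lowest adjusted p = 0.13), while ergic2 and ergic3 lay between -0.31 and 0.36. The symbol sec14l1 matches the naming rule but codes for a Sec14-like lipid-binding protein outside this pathway, and it had 0.42, -0.18, 0.68 and 0.06 there.

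Across all 73 genes the difference between meals passed for 0 genes at 1 h, where 0.218% of all genes were higher and 0.764% lower after egg yolk, and for 0 genes at 4 h (0.242% and 0.288%), by the approximate normal test. At an unadjusted p under 0.05, 0 genes differed at 1 h (all genes 1.61% higher and 3.37% lower), and 1 gene (sec23a) was higher and 0 lower at 4 h (1.53% and 2.39%). Between 4 h and 1 h after egg yolk, 0 genes were higher and 2 lower (all genes 3.24% and 3.23%), which were sec23b and srp9. After egg white 0 were higher and 1 lower (0.616% and 1.4%), which was sec23b. At an unadjusted p under 0.05, 3 were higher and 5 lower between the times after egg yolk (all genes 8.29% and 8.27%), and 0 and 2 after egg white (4.18% and 5.4%). The medians of these differences over the 73 genes were 0.03, 0.00, 0.00 and -0.03.

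**Figure D4:**
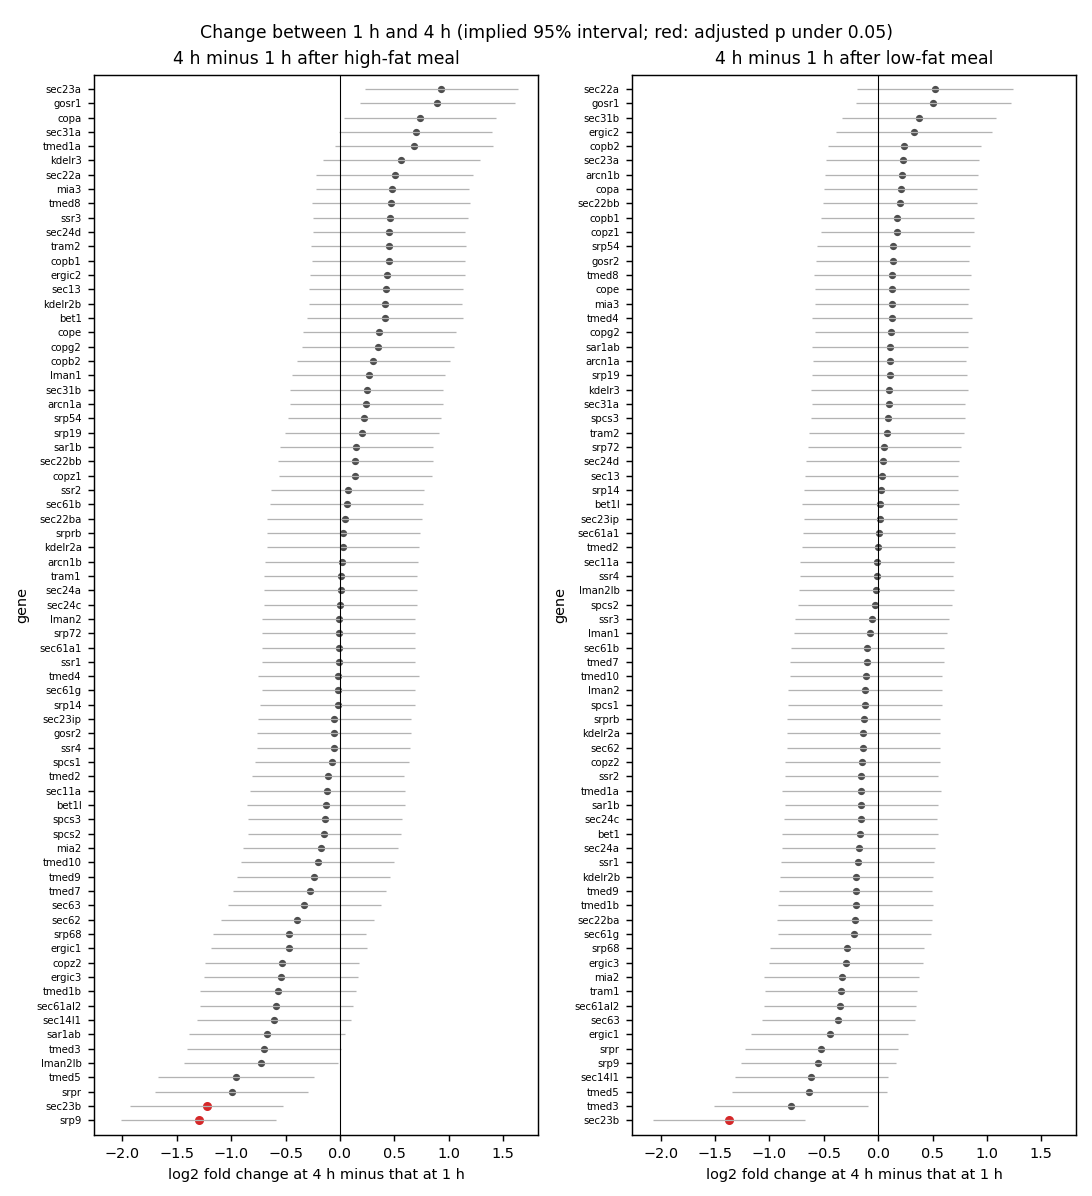
Log2 fold change at 4 h minus that at 1 h (x axis) for each of the 73 genes (y axis, ordered by value), after egg yolk at left and egg white at right, with bars for the 95% interval. Red points passed an adjusted p under 0.05: srp9 (-1.30) and sec23b (-1.23) after egg yolk, and sec23b (-1.37) after egg white.

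Genes of the same route outside the naming rule were taken from lists. Of 44 measured genes for other ER-Golgi transport factors (tethers, Rab and Arf GTPases, coat helpers), 1 was higher and 0 lower at 1 h after egg yolk in the authors' deposited table, where 1.96% and 1.77% of all genes were. It was arf4a, an Arf GTPase of COPI recruitment, with 1.44 (adjusted p = 0.0070), and with 1.07, 0.79 and 0.42 in the other comparisons. In the other 3 comparisons 0 genes of that list passed. At an unadjusted p under 0.05, 9, 6, 4 and 1 of the 44 were higher in the 4 comparisons (all genes 7.3%, 3.51%, 8.48% and 1.79%), and 1, 0, 0 and 0 were lower (all genes 7.2%, 4.26%, 5.74% and 0.756%), the lower gene being klhl12. The highest value of the list at 4 h after egg yolk was that of tfg, which organizes COPII at exit sites, with 1.247 in the authors' deposited table, where its adjusted p was 0.056, and with 0.85, 0.23 and 0.24 elsewhere. The cargo receptor gene cnih1 led after egg white, with 1.11 at 1 h and 0.82 at 4 h there, and klhl12, a ubiquitin ligase adaptor for Sec31, had the lowest value at 1 h after both meals (-0.80 and -0.67). The list's medians in the authors' deposited table were 0.12, 0.28, 0.04 and 0.12.

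Subunits of the oligosaccharyltransferase, which adds glycans to chains entering the ER, gave 0 of 10 called in any comparison of the authors' deposited table. At an unadjusted p under 0.05 the count was also 0, and the medians were 0.31, 0.21, 0.32 and 0.30. Of all genes 1.96%, 0.741%, 2.72% and 0.437% were called higher, and 1.77%, 0.616%, 1.34% and 0.0078% lower. At an unadjusted p under 0.05, 7.3%, 3.51%, 8.48% and 1.79% were higher, and 7.2%, 4.26%, 5.74% and 0.756% lower. For lists this small, counts of 0 lie near these shares. Of 14 genes of the ER membrane protein complex and of tail-anchored insertion 0 were called, with medians of 0.29, 0.17, 0.18 and 0.22. The 1 gene at an unadjusted p under 0.05 was mmgt1 (0.76 at 1 h after egg white, where 8.48% of all genes were higher by that rule). Of 4 measured genes for ribosome anchoring at the ER 0 were called, with medians of 0.32, 0.09, 0.35 and 0.16, and mtdhb was the 1 gene at an unadjusted p under 0.05 (0.98 at 1 h after egg white, where 8.48% of all genes were higher by that rule).

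Of the markers of the dissected organs, 16 of 21 for exocrine pancreas, 18 of 20 for liver and 16 of 20 for enterocytes were measured, and some markers changed. Skeletal muscle genes, from tissue outside the dissected organs, had 3 and 6 of 20 lower at 1 h and 4 h after egg yolk in the authors' deposited table, where 1.77% and 0.616% of all genes were lower, with medians of -0.72 and -1.03, against 0.30 and -0.08 and 0 called after egg white. Enterocyte markers had 3, 4, 2 and 0 of 16 higher and 0 lower there, where 1.96%, 0.741%, 2.72% and 0.437% of all genes were higher, with medians of 0.68, 0.88, 0.25 and 0.13. The lowest values of the list at 1 h were those of cdx1b, an intestinal transcription factor gene, with -0.71 after egg yolk and -0.93 after egg white. At 4 h the lowest were -1.18 for slc6a19a, an amino acid transporter gene, after egg yolk and -0.49 for cubn after egg white. At 1 h after egg white slc6a19a was instead the highest of the list, with 1.56. This list holds genes of lipid uptake and export such as si:dkey-7f3.15, an apolipoprotein A-IV gene. Exocrine pancreas markers had medians of -0.14, -0.08, 0.06 and -0.11, with 1 of 16 higher (bhlha15, a regulator of acinar secretion, 1.29 at 1 h after egg white, adjusted p = 0.029), liver markers -0.04, -0.27, 0.16 and -0.15 with 0 of 18 called, and the 3 goblet cell markers measured 0.24, 0.50, -0.02 and 0.07 with 0 called. The part of these shifts in the values of the 73 genes was not tested.

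By the gene ontology terms of the authors' deposited table, the members make up 7 of the 14 genes of ER to Golgi vesicle-mediated transport and 3 of the 17 of notochord development. They lie on 25 chromosomes, and a few are neighbours. The loci of sec23a and srp54 lie next to each other on chromosome 17, 612 bases apart, with log2 fold changes at 4 h after egg yolk of 1.201 and 0.51 in the authors' deposited table. Next to tmed9 on chromosome 14 lies lman2, which had 0.24, 0.22, 0.29 and 0.17 there. Among the 37 members with several transcripts at this level, the transcripts' fold changes had a median range of 0.027 to 0.044 in the 4 comparisons. The widest range was 0.37 (ssr3, 4 h after egg yolk), and for sec63 the range was 0 in each comparison. Transcripts of a gene may share reads, so small ranges do not count as independent measurements.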

How the data were processed

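The authors' deposited table holds their own comparisons, with log2 fold changes, average log2 CPM, p-values and adjusted p-values for 56754 transcripts and 0 columns of single samples, per the file headers. The submitters' processing notes name TopHat2, edgeR and build Zv9. For tool versions, read counting and annotation, nothing was given in the sources used here. Depth per sample is unknown, so no interval that needs it is given. Starts were counted from 1.

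The planned count tests need values per sample and were replaced by the authors' adjusted p-values, which match a Benjamini-Hochberg adjustment across the whole table. The standard error implied by the authors' p-values (log2 fold change over the normal score of p, median by log2 CPM, for sizes above 0.5) hardly depends on the transcript, so a transcript's own spread between samples does not enter its p-value. Differences between meals and times used an approximate normal test on these errors, adjusted over 12828 genes. Its run on simulated data drew errors from the same standard errors, so it cannot show whether they hold for these data. Members, lists and tests were chosen with earlier results of these data known. Named genes were those called, the highest and lowest of each role, and paralogs of called genes. Genes outside this rule, such as srp14, were chosen after their values were seen. Alternatives changed the transcript, level filter, adjustment, threshold, centring, member set and standard error, and a log2 CPM of at least 4 was added after seeing the data. Python 3.11.15, pandas 2.3.3 and scipy 1.17.1 were used.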

Additional observations from a re-analysis of the deposited data

Results flagged for a closer look

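Differences between the times passed their test for 3 results. The log2 fold change of sec23b at 4 h minus that at 1 h was -1.23 after egg yolk (adjusted p = 0.014) and -1.37 after egg white (adjusted p = 0.012). That of srp9 was -1.30 after egg yolk (adjusted p = 0.0096), with values of 0.96 at 1 h and -0.34 at 4 h against unfed larvae, neither of which passed. These p-values come from the approximate normal test on implied standard errors, and no test of single samples was possible.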

How the results depend on the processing

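No paired analysis was possible because the table holds comparisons and no values per sample, and leaving out replicates was not run for the same reason. The medians of the 73 genes ranged from 0.29 to 0.37 and from 0.23 to 0.26 at 1 h and 4 h after egg yolk, and from 0.25 to 0.29 and 0.21 to 0.24 after egg white, over the transcript, filter, centring and member alternatives. At 1 h after egg yolk 2 genes were higher when p-values were adjusted over the 12828 genes (tmed5 then passed, adjusted p = 0.044), and 2 at an adjusted p under 0.1. At 4 h after egg yolk 3 were higher at an adjusted p under 0.1. Shares of all genes under these changed rules are not given here, so these counts have no background beside them. With a log2 CPM of 4 or more, 1 of 46 members was higher at 1 h after egg white, since tmed3 lies below that level. Of the 3624 genes at that level 120 were higher there. That alternative was chosen after seeing the data. With standard errors raised by 25%, 0 genes were lower at 4 h than at 1 h after egg yolk and 0 after egg white: srp9 had an adjusted p of 0.11 and sec23b of 0.14 and 0.20. The calls between times thus depend on the size of the standard error. They held with the error taken from each gene's own p-value, but that p-value does not hold the gene's own spread between samples. The other 130 values of counts and medians under these alternatives were labelled as unchanged. For a median that label allowed any shift below the typical standard error of a single gene. That error is larger than the medians themselves, so the label could hardly fail for them, and only their ranges above are informative.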
